A study of Mus musculus with 38 samples.

Results

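The mitosis genes are 54 mouse genes that act in the G2 and M phases of the cell cycle, taken by gene symbol from the 31053 symbols of each of the 4 count tables. All 54 symbols were found in each table, and all 54 had enough counts to be tested in every comparison. The members comprised 9 cyclins, CDK1 and regulators of CDK1, 2 transcription factors, 4 mitotic kinases, 3 spindle checkpoint proteins and 4 proteins of the anaphase-promoting complex pathway and sister chromatid separation. The other groups were 7 centromere and kinetochore proteins, 3 partners of AURKB in the chromosomal passenger complex, 8 kinesins, 3 spindle assembly factors, 4 proteins of the spindle midzone and cytokinesis, and 7 genes of condensin, topoisomerase II and the chromosome surface.

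RNA was sequenced from 38 libraries of mouse T cells, each made from 2000 sorted cells on a C57/B6 background. For 22 libraries, naive T cells carrying the 2D2 T cell receptor were differentiated into inflammatory Th17 (Th17Inf) cells in culture and transferred into wild-type recipients, which then developed experimental autoimmune encephalomyelitis (EAE), a mouse model of multiple sclerosis. At peak disease 2D2+ cells were sorted from the central nervous system (CNS) as Chd1 wild type (CHD1 WT, n = 3) or Chd1 conditional knockout (CHD1 cKO, n = 4), from the draining lymph nodes (dLN) as CHD1 WT (n = 3) or CHD1 cKO (n = 4), and from the CNS as glucocorticoid receptor wild type (GR WT, n = 4) or conditional knockout (GR cKO, n = 4). For the other 16 libraries, naive T cells of WT or IL-23R KO mice, taken from spleen and lymph nodes, were differentiated into Th17Inf cells in culture and given dexamethasone (Dex), a synthetic glucocorticoid, for 2 days or left without it, in 4 groups of 4. The labels call the CHD1 and GR deletions KO or cKO and name no driver of the deletion, and the 2D2 receptor and the wild-type host were common to both genotypes of each in vivo comparison. The labels do not say whether the libraries of a group came from separate mice or cultures, so the p-values cover only how far these libraries spread. Levels are given as scaled CPM, CPM of a library's total counts after TMM scaling within a table. A gene was called where the edgeR quasi-likelihood test, adjusted by the Benjamini-Hochberg method over all genes tested, gave p below 0.05. Fold changes are given as log2 with the standard error (SE).

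Mitosis begins when CDK1 bound to cyclin B is switched on by CDC25 phosphatases and the polo and aurora kinases. Chromosomes are then condensed, attached to spindle microtubules by kinetochores, and held by the spindle checkpoint until the anaphase-promoting complex, switched on by CDC20, marks securin and cyclin B for destruction and so frees separase. The transcripts of these genes rise together late in the cycle under the MuvB complex with B-MYB (Mybl2) and FOXM1, and they fall in quiescent cells. In activated T cells they are widely read as markers of clonal expansion, and glucocorticoids are known to restrain that expansion.

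Each library held between 3148634 and 9159671 counts, and the 54 genes together took between 2646 and 21985 of them. Between 41.8% and 59.7% of lymph node counts, and 13.1% to 41.9% of CNS counts, fell on repeats and ribosomal RNA. The 4 IL-23R KO Dex libraries stood apart from the other 12 cultured libraries. Repeat features took 30.5% to 37.5% of their counts against 13.5% to 25.4% in the others, and mitochondrially encoded genes took 0.359% to 0.447% against 1.46% to 2.26%. All 4 libraries of the group shared these shares, so they cannot be told apart from the group in the comparisons that use it. With the repeat features removed before scaling, 47 members were called for Dex in IL-23R KO cells, as with them. T cell markers (Cd3d, Cd3e, Cd3g, Cd4, Trac, Cd2 and Lck) were found in every group. The Th17 markers were low in vivo, with Il17a at 0 in all 7 lymph node libraries. The glucocorticoid receptor gene Nr3c1 was at 11.5 to 17.2 scaled CPM in GR WT and at 5.20 to 6.12 in GR cKO. Chd1 overlapped between genotypes, at 5.06 to 6.11 against 3.46 to 6.40 in the CNS and 4.70 to 5.11 against 2.58 to 5.44 in the lymph node, so its level does not check the CHD1 labels. Il23r was still counted in IL-23R KO cells, at 2.14 to 5.28 against 5.79 to 8.03 in WT without Dex.

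**Figure D1:**
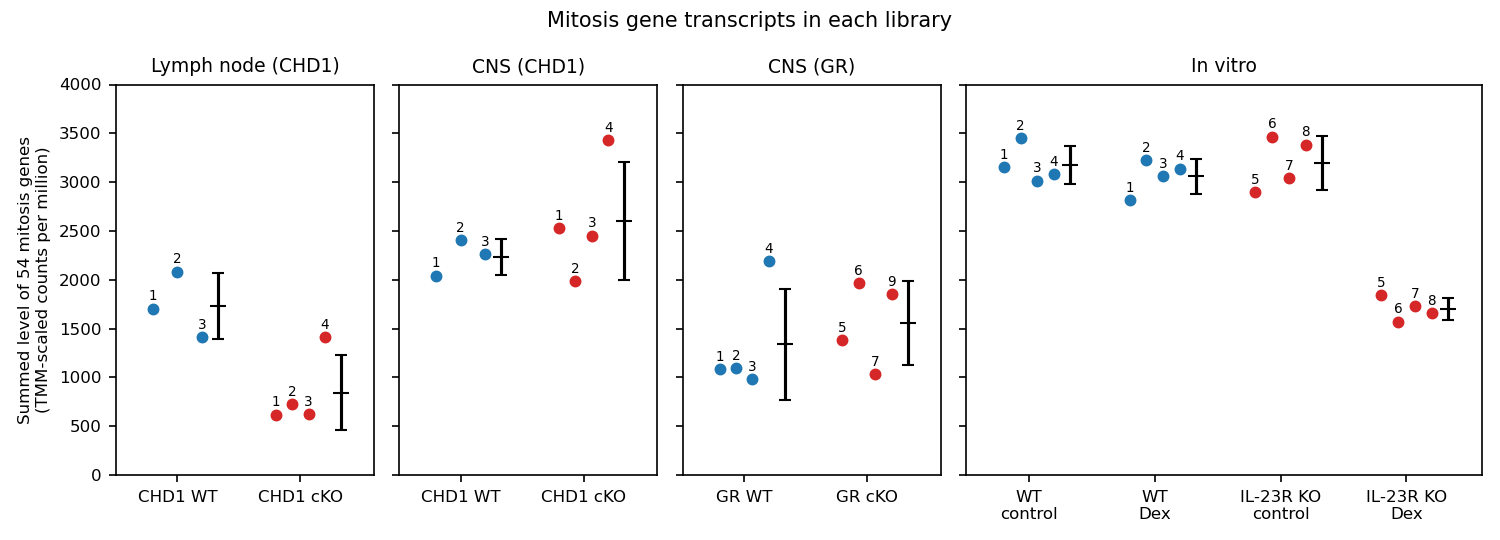
Summed level of the 54 mitosis genes (y axis, scaled CPM) in each library, by group (x axis); points carry the replicate number and bars show the mean and SD of the group. The 4 IL-23R KO Dex libraries lie between 1572 and 1843, below the other 12 cultured libraries, and CHD1 cKO lymph node libraries 1 to 3 lie below the 3 WT libraries while library 4 does not.

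Promoters of the members were examined for the 2 elements best known for cell cycle control of late genes. The cell cycle genes homology region (CHR) is bound by the MuvB complex and was searched as TTTGAA, its reverse complement TTCAAA and the variant TTCGAA. The CCAAT box, bound by NF-Y, was searched as CCAAT and its reverse complement ATTGG. The RefSeq promoter table (GRCm38.p6, 250 bases before to 50 after the start site) had an entry for 45 of the 54 members. A CHR was present in 35 of 45 (77.8%) against 19.4% of all 27025 promoters, and it began within 50 bases of the start site in 32 of 45 (71.1%) against 5.22%. A CCAAT box was present in 34 of 45 (75.6%) against 37.9%, 2 or more in 23 (51.1%) against 12.2%, and both elements in 31 (68.9%) against 7.70%. These shares describe letters in a window, and no site was measured. The 7 promoters below are shown because the results below turn on their genes, and capitals mark every CHR and CCAAT match on either strand. The first 4 belong to members with large falls in IL-23R KO cells under Dex, the next 2 to the members that rose there, and the last to a member that was not called there.
Plk1: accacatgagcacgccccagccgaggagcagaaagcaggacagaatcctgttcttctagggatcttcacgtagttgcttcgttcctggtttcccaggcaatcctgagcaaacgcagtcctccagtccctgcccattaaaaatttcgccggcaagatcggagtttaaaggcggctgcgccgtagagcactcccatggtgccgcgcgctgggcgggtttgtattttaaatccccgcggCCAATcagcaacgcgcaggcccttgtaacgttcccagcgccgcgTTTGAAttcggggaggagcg
Nuf2: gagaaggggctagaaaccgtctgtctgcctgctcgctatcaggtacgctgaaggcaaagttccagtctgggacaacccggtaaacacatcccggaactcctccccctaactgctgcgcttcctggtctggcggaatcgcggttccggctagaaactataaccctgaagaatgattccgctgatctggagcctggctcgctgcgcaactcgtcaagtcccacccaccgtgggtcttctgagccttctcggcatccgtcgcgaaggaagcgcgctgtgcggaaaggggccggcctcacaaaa
Ccnb1: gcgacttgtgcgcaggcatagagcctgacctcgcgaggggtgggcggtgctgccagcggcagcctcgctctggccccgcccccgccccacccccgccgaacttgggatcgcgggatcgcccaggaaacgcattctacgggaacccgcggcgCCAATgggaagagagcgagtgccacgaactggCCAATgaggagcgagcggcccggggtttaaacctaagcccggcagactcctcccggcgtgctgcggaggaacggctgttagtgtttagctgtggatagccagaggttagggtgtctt
Top2a: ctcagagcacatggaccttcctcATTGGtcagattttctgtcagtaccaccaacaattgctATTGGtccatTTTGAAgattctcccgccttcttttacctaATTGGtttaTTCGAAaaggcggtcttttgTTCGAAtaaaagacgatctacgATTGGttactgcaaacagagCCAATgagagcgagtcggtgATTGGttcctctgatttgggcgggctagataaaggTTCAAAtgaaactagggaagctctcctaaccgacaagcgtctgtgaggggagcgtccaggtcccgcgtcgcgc
Pttg1: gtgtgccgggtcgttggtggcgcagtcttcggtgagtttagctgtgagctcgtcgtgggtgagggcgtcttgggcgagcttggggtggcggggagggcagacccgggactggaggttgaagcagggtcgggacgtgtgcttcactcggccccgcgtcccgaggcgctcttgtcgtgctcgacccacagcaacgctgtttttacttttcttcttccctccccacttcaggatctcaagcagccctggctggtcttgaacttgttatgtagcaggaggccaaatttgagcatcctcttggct
Cks2: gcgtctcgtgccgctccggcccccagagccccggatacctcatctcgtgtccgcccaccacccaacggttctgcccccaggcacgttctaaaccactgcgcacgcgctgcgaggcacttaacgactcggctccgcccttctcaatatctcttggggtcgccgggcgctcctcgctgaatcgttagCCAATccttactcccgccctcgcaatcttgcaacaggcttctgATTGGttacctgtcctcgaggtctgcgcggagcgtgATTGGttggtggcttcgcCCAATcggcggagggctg
Bub1: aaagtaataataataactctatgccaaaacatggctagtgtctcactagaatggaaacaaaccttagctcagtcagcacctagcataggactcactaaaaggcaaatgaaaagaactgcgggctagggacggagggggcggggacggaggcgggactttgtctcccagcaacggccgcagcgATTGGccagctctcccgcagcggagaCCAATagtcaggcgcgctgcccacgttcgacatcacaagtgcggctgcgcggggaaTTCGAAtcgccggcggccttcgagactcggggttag
The windows are Plk1 chr7:122159185-122159484, plus strand; Nuf2 chr1:169531415-169531714, minus strand; Ccnb1 chr13:100786437-100786736, minus strand; and Top2a chr11:99024140-99024439, minus strand. The others are Pttg1 chr11:43425932-43426231, minus strand; Cks2 chr13:51644982-51645281, plus strand; and Bub1 chr2:127831810-127832109, minus strand. All 7 genes are protein coding. The Plk1 window holds 1 CHR, 30 bases after the start site, and 1 CCAAT box 14 bases before it. The Top2a window holds 4 CHR matches and 6 CCAAT boxes, and the Ccnb1 window holds 2 CCAAT boxes and no CHR. Nuf2 and Pttg1 hold neither element, although their fitted changes under Dex in IL-23R KO cells had opposite signs. The Pttg1 window lies inside the annotated gene, whose 5' end is at chr11:43426251. It therefore does not describe the promoter at that end. Cks2 holds 4 CCAAT boxes and no CHR, and Bub1 holds 1 CHR and 2 CCAAT boxes.

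**Figure D2:**
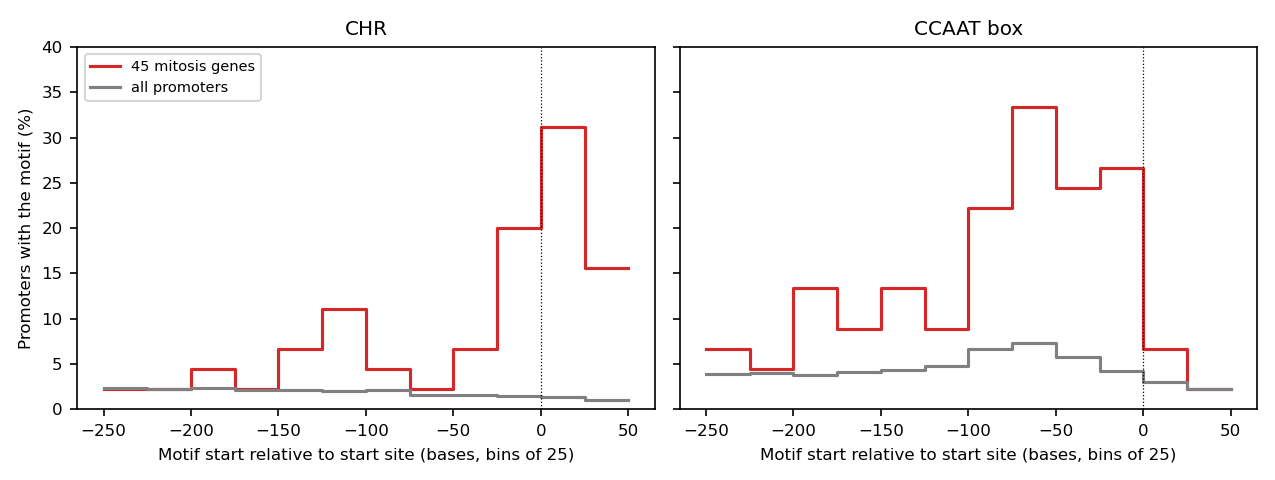
Share of promoters (y axis, %) with a CHR (left) or a CCAAT box (right) that begins in each bin of 25 bases relative to the start site (x axis), for the 45 members with a promoter entry and for all 27025 promoters. In members the CHR share peaks in the bin that begins at the start site, at 31.1%, and the CCAAT share peaks in the bin that begins 75 bases before it, at 33.3%.

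Most mitosis genes were lower in IL-23R KO cultures with Dex than in those without it. Of the 54 members 45 fell and 2 rose (Pttg1 and Cks2, of which Cks2 turned to -0.04 without TMM scaling) in IL-23R KO cells with Dex against IL-23R KO cells without it, and 7 were not called (Bub1, Cenpf, Spc25, Espl1, Anln, Kif4 and Kif18b). The background was high: 54.7% of the 10813 genes tested were called, with 27.4% of all genes lower and 27.3% higher; of the members 87.0% were called. The median log2 fold change of the members was -0.90 against 0.01 over all genes tested. The summed level was 2894, 3466, 3042 and 3385 scaled CPM in the control libraries (5 to 8) and 1843, 1572, 1731 and 1657 in the Dex libraries, and the groups did not overlap. In RNA of 2000 cells, fewer dividing cells and less mitotic RNA per cell cannot be told apart. Groups did not overlap for 44 members that were lower and 2 that were higher, against 23.8% and 24.2% of all genes. Without TMM scaling the median of all genes itself shifted by -0.45, and the 54 members had a median of -1.37.

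Cyclins, CDK1 and its regulators fell in 8 of 9 cases, with a median log2 fold change of -1.36. Cdk1, the kinase that drives mitotic entry, was at 158, 203, 203 and 225 scaled CPM without Dex and at 67.02, 61.5, 65.1 and 63.5 with it (log2 fold change -1.62 ± 0.12, adjusted p = 1.4e-08). Ccnb1, the cyclin B that activates CDK1, was at 127, 168, 117 and 171 without Dex and at 48.1, 33.1, 35.96 and 39.05 with it (log2 fold change -1.90 ± 0.15, adjusted p = 1.6e-08). For both genes no Dex library reached any control library. Ccna2, the cyclin of S and G2 phase, had a log2 fold change of -1.85 ± 0.12, Ccnb2 of -1.36 ± 0.08 and Ccnf, which encodes an F-box protein, of -1.34 ± 0.10. The phosphatase genes Cdc25b (-0.62 ± 0.12) and Cdc25c (-0.55 ± 0.13) fell less. The exception was Cks2, one of a pair of small CDK-binding proteins, at 155, 175, 158 and 153 without Dex and 229.9, 202, 215 and 217 with it (log2 fold change 0.43 ± 0.09, adjusted p = 0.00069). Its near relative Cks1b fell, with a log2 fold change of -1.71 ± 0.13, at 137 to 177 scaled CPM without Dex and 36.8 to 55.3 with it. The 2 transcription factors of the program fell as well. Foxm1 was at 5.83, 9.39, 7.50 and 7.96 without Dex and 4.21, 5.47, 3.11 and 5.05 with it (log2 fold change -0.79 ± 0.21, adjusted p = 0.0044), and Mybl2 had a log2 fold change of -1.63 ± 0.35.

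The 4 mitotic kinases all fell. Plk1, the polo-like kinase of mitotic entry and spindle assembly, was at 47.4, 68.3, 45.5 and 60.6 scaled CPM without Dex and at 13.2, 11.96, 13.6 and 10.9 with it (log2 fold change -2.16 ± 0.15, adjusted p = 4.4e-09). This was the largest fall among the members, and the Dex libraries lay far under the control libraries. Aurkb, the kinase of the chromosomal passenger complex, was at 104, 105, 106 and 108 without Dex and 62.5, 47.2, 64.6 and 53.7 with it (log2 fold change -0.89 ± 0.09, adjusted p = 4.9e-07). Its 3 partners fell too, with log2 fold changes of -1.48 ± 0.14 for Cdca8 (borealin), -1.15 ± 0.10 for Birc5 (survivin) and -0.92 ± 0.12 for Incenp. The other kinases were Ttk, which starts the spindle checkpoint (-1.74 ± 0.18), and Aurka, which works at spindle poles (-1.35 ± 0.11).

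Among the checkpoint genes Mad2l1 (-1.21 ± 0.13) and Bub1b (-0.85 ± 0.18) fell. Bub1, the kinase that recruits checkpoint proteins to kinetochores, was at 27.3, 35.4, 33.5 and 31.5 scaled CPM without Dex and 32.2, 31.1, 34.8 and 34.00 with it, and the groups overlapped (log2 fold change 0.05 ± 0.12, adjusted p = 0.74). In the group that acts on the anaphase-promoting complex and sister separation, members went separate ways. Cdc20, the activator of the complex, was at 84.2, 112, 72.3 and 95.5 without Dex and 64.01, 62.2, 67.96 and 61.4 with it (log2 fold change -0.51 ± 0.12, adjusted p = 0.002). Ube2c, the ubiquitin-conjugating enzyme of the complex, fell further (-1.67 ± 0.12), with the limit that 22.8% of its exonic bases overlap Tnnc2. Pttg1, the securin that holds separase inactive, rose from 63.00, 78.1, 69.4 and 73.7 to 119, 83.04, 104 and 102 (log2 fold change 0.52 ± 0.10, adjusted p = 0.00031). Espl1, separase itself, had a log2 fold change of 0.17 ± 0.25 and was not called. The rises of Pttg1 and Cks2 depended on the scaling: without TMM scaling their log2 ratios were 0.04 and -0.04, and their groups overlapped, so both were above the -0.45 shift of all genes.

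At the centromere and kinetochore 5 of 7 members fell. Within the NDC80 complex, which couples kinetochores to microtubules, the subunits differed in size of change. Nuf2 was at 16.8, 23.7, 21.2 and 23.3 scaled CPM without Dex and at 4.81, 4.78, 6.80 and 3.98 with it (log2 fold change -2.06 ± 0.16, adjusted p = 2e-08). Ndc80 was at 17.03, 18.98, 18.5 and 24.6 without Dex and at 12.9, 9.23, 13.9 and 10.1 with it (log2 fold change -0.78 ± 0.17, adjusted p = 0.00087). Spc24 fell by a similar amount (-0.88 ± 0.15), whereas Spc25 had a log2 fold change of -0.12 ± 0.14 and was not called. The 95% interval of the Spc25 change ran from -0.40 to 0.16. Cenpe, the kinesin of the outer kinetochore, was at 8.40, 9.39, 7.23 and 7.96 without Dex and 5.41, 4.78, 4.25 and 5.58 with it (log2 fold change -0.72 ± 0.14, adjusted p = 0.0012). Cenpa, the histone that marks the centromere, fell with a log2 fold change of -0.82 ± 0.07, and Cenpf (-0.13 ± 0.19) was not called.

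Of the 8 kinesins 6 fell. Kif11, which pushes spindle poles apart, was at 15.6, 18.98, 15.5 and 18.4 scaled CPM without Dex and 9.62, 7.86, 10.8 and 7.44 with it (log2 fold change -0.94 ± 0.16, adjusted p = 8.7e-05). Kif2c, a microtubule depolymerase at centromeres, fell most in this group (-1.58 ± 0.16), followed by Kif22 (-1.15 ± 0.14). Kif18b (0.02 ± 0.25) and Kif4 (-0.43 ± 0.22) were not called, and 15.1% of the exonic bases of Kif4 overlap Pdzd11. The spindle assembly genes Tpx2, Hmmr and Nusap1 all fell, with log2 fold changes from -1.14 to -0.86. Of the midzone and cytokinesis genes Ect2 (-1.09 ± 0.20), Prc1 (-0.60 ± 0.15) and Racgap1 (-0.51 ± 0.12) fell, and Anln (0.16 ± 0.21) was not called.

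All 7 genes of condensin, topoisomerase II and the chromosome surface fell. Top2a, the topoisomerase that untangles sister chromatids, was at 108, 123, 115 and 122 scaled CPM without Dex and 36.7, 32.5, 40.2 and 40.1 with it (log2 fold change -1.64 ± 0.10, adjusted p = 1.2e-09). Mki67, which coats mitotic chromosomes and encodes the Ki-67 antigen, was at 13.5, 18.8, 16.1 and 15.5 without Dex and 6.61, 5.47, 8.49 and 5.31 with it (log2 fold change -1.30 ± 0.15, adjusted p = 1.7e-06). Ncapg, a condensin I subunit, was at 31.03, 34.04, 32.4 and 38.3 without Dex and 24.04, 17.1, 25.2 and 24.97 with it (log2 fold change -0.57 ± 0.12, adjusted p = 0.00054), and 13.4% of its exonic bases overlap Lcorl. No Dex library reached the control range for any of these 3 genes. The other condensin genes had log2 fold changes of -1.03 ± 0.12 (Ncaph), -0.90 ± 0.11 (Smc2), -0.82 ± 0.13 (Ncapd2) and -0.58 ± 0.13 (Smc4).

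Other cell cycle genes in the same comparison were counted by lists. Of 50 DNA replication and S phase genes 47 fell and none rose, with a median log2 fold change of -1.25; Mcm5 fell by 2.07 and Rrm2 by 2.32 on the log2 scale. Of 65 further G2 and M phase genes 46 fell and 3 rose. Of 14 CDK inhibitors and quiescence genes tested, 10 rose and none fell. Cdkn1b (p27) rose by 1.85 ± 0.18 and Cdkn1a (p21) by 0.92 ± 0.08. Of 15 G1 and G1/S genes 3 rose and 6 fell, of 16 anaphase-promoting complex subunit genes 1 rose and 7 fell, and of 11 genes of MuvB, DREAM and NF-Y 1 rose and 3 fell. The promoter elements did not sort the members by call: a CHR near the start site was present in 25 of the 36 promoters of members that fell, in 7 of 7 of those not called, and in 0 of the 2 that rose. Some genes on the lists for other cells were higher in the same libraries, while several defining markers of those cells were at 0. H2-Ab1, which made up most of the antigen-presenting list, was at 829.8 to 983.9 scaled CPM with Dex and 195 to 336 without it (log2 fold change 1.78 ± 0.15, adjusted p = 6.3e-08), while H2-Aa fell (-1.99 ± 0.51, adjusted p = 0.0032) and Itgax was at 0 with Dex. Of the macrophage list Cd68 rose (2.25 ± 0.23), while Lyz2, C1qb, C1qc, Csf1r and Trem2 were at 0 with Dex. The T cell list summed to 1751 to 1920 with Dex and 2028 to 2209 without it. Of 5 Th17 markers tested 3 fell and none rose. The part of these genes in the fall of the members was not tested.

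In WT cultures the same treatment moved no member past the threshold. None of the 54 mitosis genes was called between WT Dex and WT control by edgeR or by DESeq2, while 8.08% of all genes tested were called. In edgeR 5 members had an unadjusted p below 0.05, against 2427 of all 10813 genes tested. The median log2 fold change was -0.02 against 0.01 over all genes. The summed level was 3156, 3447, 3013 and 3085 scaled CPM without Dex and 2812, 3227, 3062 and 3138 with it, and the groups overlapped. The smallest p-values belonged to Cdc25b, a CDK1-activating phosphatase, Plk1 and Pttg1. Cdc25b was at 47.04, 38.8, 44.7 and 43.97 without Dex and at 51.1, 45.9, 61.1 and 59.2 with it (log2 fold change 0.32 ± 0.12, adjusted p = 0.11). Plk1 was at 51.3, 62.9, 47.5 and 52.98 without Dex and at 41.9, 46.5, 43.5 and 39.4 with it (log2 fold change -0.33 ± 0.12, adjusted p = 0.13), and Pttg1 at 63.2, 58.2, 61.8 and 63.9 against 56.8, 46.96, 54.4 and 49.8 (log2 fold change -0.25 ± 0.10, adjusted p = 0.16). For Plk1, Pttg1 and Ccnf the groups did not overlap, with the Dex libraries lower, against 8.20% of all genes.

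The other anchor genes gave a close picture in WT cultures, given as control libraries against Dex libraries. Cdk1 was at 184, 225, 162 and 191 scaled CPM without Dex and 139, 187, 158 and 172 with it. Ccnb1 was at 127, 144, 118 and 116 against 96.8, 126, 115 and 99.7, and Cdc20 at 78.9, 92.7, 90.3 and 85.8 against 69.6, 97.02, 91.04 and 90.5. Control and Dex libraries overlapped for all 3. Top2a was at 117, 113, 102 and 93.5 without Dex and 104, 128, 118 and 128 with it. Mki67 was at 15.5, 15.9, 15.6 and 13.9 against 16.6, 16.8, 17.7 and 18.9, and every Dex library was above every control library, as in 7.86% of all genes (log2 fold change 0.20 ± 0.13, adjusted p = 0.4). Aurkb was at 106, 117, 115 and 98.9 without Dex and 103, 106, 119 and 113 with it. Kinetochore and checkpoint anchors were as close between the groups. Bub1 was at 29.5, 33.5, 31.5 and 32.8 against 27.6, 35.7, 36.5 and 25.8, Cenpe at 8.48, 8.42, 7.72 and 8.36 against 7.995, 8.60, 8.15 and 7.92. Ndc80 was at 15.3, 18.6, 15.2 and 21.02 against 17.5, 20.5, 14.9 and 19.4. Neither Kif11, at 25.03, 19.98, 17.03 and 17.4 against 17.3, 20.9, 20.8 and 20.03, nor Ncapg, at 37.3, 38.6, 34.3 and 36.2 against 31.6, 36.6, 37.8 and 37.4, separated the groups. Foxm1 had the most positive change, from 7.27, 6.07, 5.35 and 4.29 to 7.78, 8.16, 6.79 and 7.92 (log2 fold change 0.41 ± 0.19, adjusted p = 0.22), and it was not called.

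**Figure D3:**
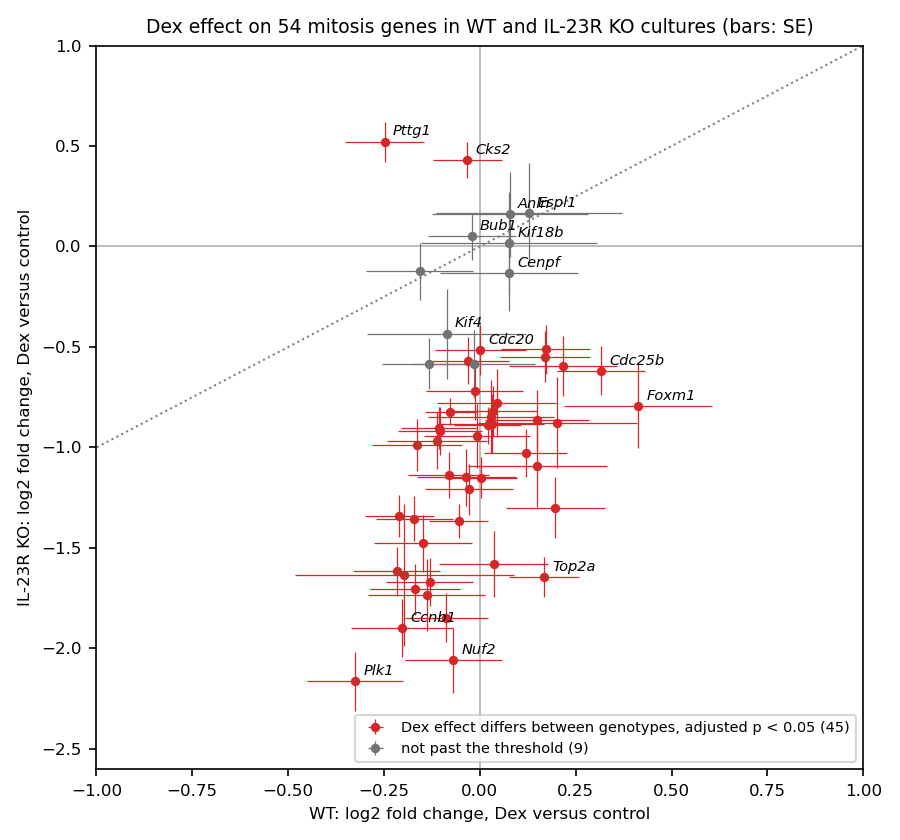
Log2 fold change of each of the 54 mitosis genes with Dex against control in WT cultures (x axis) and in IL-23R KO cultures (y axis), with bars for the SE and the dotted line for equal change; red points are the 45 members whose Dex effect differed between the genotypes at an adjusted p below 0.05. In WT all members lie between -0.33 and 0.41, while in IL-23R KO they spread from -2.16 (Plk1) to 0.52 (Pttg1).

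The Dex effect differed between the genotypes for most members. The interaction of genotype and Dex was called for 45 of 54 members, 43 with a more negative and 2 with a more positive Dex effect in IL-23R KO, against 32.2% of all genes tested, 17.2% negative and 15% positive. Its median over the members was -0.92 against -0.01 over all genes. The most negative terms belonged to Nuf2 (-1.99 ± 0.21, adjusted p = 3.2e-06), Plk1 (-1.84 ± 0.19, adjusted p = 3.6e-06) and Top2a (-1.81 ± 0.13, adjusted p = 9.1e-08). The 2 positive terms were Pttg1 (0.77 ± 0.14, adjusted p = 0.00062) and Cks2 (0.46 ± 0.13, adjusted p = 0.01). Cdk1 (-1.40 ± 0.17), Ccnb1 (-1.70 ± 0.20), Mki67 (-1.50 ± 0.20) and Foxm1 (-1.21 ± 0.29) were among those called, and Bub1 (0.07 ± 0.16, adjusted p = 0.78) was not. Smaller called terms were those of Kif11 (-0.94 ± 0.21), Aurkb (-0.91 ± 0.13), Ndc80 (-0.82 ± 0.23), Cenpe (-0.71 ± 0.19), Ncapg (-0.54 ± 0.16) and Cdc20 (-0.52 ± 0.17). The 9 members whose Dex effect was not shown to differ were the 7 not called in IL-23R KO cells, Kif23 and Smc4.

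Without Dex the genotypes were close. None of the 54 members was called between IL-23R KO and WT control cultures by edgeR or DESeq2, and 0.684% of all genes were called. In edgeR 2 members had an unadjusted p below 0.05, against 1051 of all 10813 genes tested. The median log2 fold change was 0.01 and the changes ran from -0.33 (Kif18b) to 0.42 (Foxm1). The 3 members with the smallest p were Cks2 (log2 fold change -0.20 ± 0.09, adjusted p = 0.49), Foxm1 (log2 fold change 0.42 ± 0.19, adjusted p = 0.5) and Pttg1 (log2 fold change 0.20 ± 0.10, adjusted p = 0.54), and in each the 2 groups overlapped. With Dex 46 of 54 members were called between IL-23R KO and WT, 44 lower and 2 higher (Pttg1 and Cks2), against 45.9% of all genes, 23.7% lower and 22.2% higher. This comparison shares its IL-23R KO Dex libraries with the Dex comparison in IL-23R KO cells, and without TMM scaling the median of all genes shifted by -0.31. The median was -0.94, and the largest falls were those of Nuf2 (log2 fold change -2.15 ± 0.16, adjusted p = 2.5e-08), Plk1 (log2 fold change -1.78 ± 0.15, adjusted p = 8.2e-08) and Ccna2 (log2 fold change -1.77 ± 0.12, adjusted p = 1.1e-08). Pttg1 was higher (log2 fold change 0.97 ± 0.10, adjusted p = 9.8e-07), with 4 IL-23R KO libraries above all 4 WT libraries as in 20.2% of all genes, while the Cks2 groups overlapped (log2 fold change 0.26 ± 0.09, adjusted p = 0.026) and its log2 ratio without TMM scaling was -0.05. Bub1 (0.08 ± 0.12), Spc25 (0.06 ± 0.14), Anln (0.09 ± 0.21) and Espl1 (0.13 ± 0.25) again had small changes that were not called.

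In the lymph node every mitosis gene had a lower fitted level in CHD1 cKO than in CHD1 WT cells, but none passed the threshold. CHD1 is a chromatin remodeller found at active genes. All 54 log2 fold changes were negative, from -1.999 (Kif18b) to -0.03 (Smc4), with a median of -1.27 against 0.02 over all genes tested. By edgeR 0 of 54 members were called and the smallest adjusted p was 0.055, while DESeq2 called 16. In edgeR 45 members had an unadjusted p below 0.05, against 1971 of all 9803 genes tested. Few genes of any kind were called here, 0.0714% of 9803. Groups did not overlap for 22 members, all lower, against 7.98% of all genes. The summed level was 1704, 2084 and 1410.3 scaled CPM in WT and 619, 724, 622 and 1410.6 in cKO. Library 4 of the cKO group was apart from the other 3: it was the highest of the 4 for 50 of 54 members, and its sum lay just above that of the lowest WT library. Its share of repeats and ribosomal RNA, 59.7%, was the highest of the lymph node libraries. Its neutrophil marker list summed to 46.7 scaled CPM against 0 in the other 3 cKO libraries, and to 49.5 in WT library 1. The part of these differences was not tested. Without cKO library 4, 45 of 54 members were called and the median was -1.78. The share of all genes called was not counted for that fit or for DESeq2.

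The 3 smallest p-values were those of Kif22, Aurka and Kif2c. Kif22, a chromosome-binding kinesin, was at 34.2, 31.8 and 36.1 scaled CPM in WT and 15.5, 12.6, 12.9 and 19.5 in cKO (log2 fold change -1.17 ± 0.17, adjusted p = 0.055). Aurka was at 19.98, 19.4 and 15.1 in WT and 4.74, 4.45, 4.70 and 11.3 in cKO (log2 fold change -1.52 ± 0.31, adjusted p = 0.072), and Kif2c at 8.13, 10.8 and 6.21 against 1.72, 1.98, 1.41 and 4.33 (log2 fold change -1.82 ± 0.38, adjusted p = 0.072). In all 3 genes every cKO library was below every WT library. Plk1 was at 34.4, 37.1 and 24.6 in WT and 6.47, 10.9, 7.75 and 21.9 in cKO (log2 fold change -1.45 ± 0.36, adjusted p = 0.094). Aurkb was at 36.2, 51.2 and 23.2 against 7.76, 12.4, 9.63 and 20.7 (log2 fold change -1.55 ± 0.34, adjusted p = 0.076). Both kinases separated the groups even with library 4 included.

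The other anchor genes of the lymph node also had negative changes, and the groups overlapped for Ncapg, Ndc80 and Foxm1. Cdk1 was at 74.1, 105 and 55.9 scaled CPM in WT and 14.7, 24.5, 15.5 and 52.9 in cKO (log2 fold change -1.54 ± 0.41, adjusted p = 0.11). Ccnb1 was at 62.7, 89.9 and 51.6 in WT and 13.2, 25.5, 19.97 and 47.4 in cKO (log2 fold change -1.36 ± 0.36, adjusted p = 0.11). In both, cKO libraries 1 to 3 were far below WT and library 4 was nearest to it. Top2a was at 56.9, 89.6 and 51.1 in WT and 15.3, 15.8, 12.7 and 49.3 in cKO (log2 fold change -1.50 ± 0.43, adjusted p = 0.12). Mki67 was at 17.9, 21.3 and 16.01 against 3.23, 5.19, 4.46 and 14.9 (log2 fold change -1.41 ± 0.42, adjusted p = 0.13). Ncapg was at 13.2, 18.2 and 10.99 against 2.37, 4.45, 2.58 and 11.5 (log2 fold change -1.44 ± 0.47, adjusted p = 0.14). For Top2a and Mki67 the cKO libraries stayed below WT, and for Ncapg library 4 fell inside the WT range.

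Cdc20 was at 65.8, 76.3 and 41.6 scaled CPM in WT lymph node cells and 16.4, 18.5, 13.4 and 37.8 in cKO (log2 fold change -1.51 ± 0.33, adjusted p = 0.076). Bub1 was at 15.1, 17.4 and 10.04 in WT and 1.94, 6.67, 3.99 and 8.42 in cKO (log2 fold change -1.44 ± 0.39, adjusted p = 0.11), and Cenpe at 8.83, 5.25 and 4.30 against 2.59, 1.24, 0.940 and 3.13 (log2 fold change -1.62 ± 0.43, adjusted p = 0.11). These 3 genes of chromosome attachment and release did not overlap between the groups. Ndc80 was at 10.2, 15.5 and 10.8 in WT and 4.10, 4.45, 4.23 and 10.3 in cKO (log2 fold change -1.07 ± 0.34, adjusted p = 0.14). Kif11 was at 11.8, 14.7 and 10.5 against 2.37, 2.72, 3.05 and 9.86 (log2 fold change -1.45 ± 0.44, adjusted p = 0.13), and library 4 was inside the WT range for Ndc80 but not for Kif11. Foxm1, the transcription factor, was at 3.72, 4.98 and 3.11 in WT and 4.10, 2.97, 1.88 and 4.81 in cKO (log2 fold change -0.18 ± 0.36, adjusted p = 0.81), where the groups overlapped and single libraries turned the sign. Smc4 (-0.03 ± 0.16), Pttg1 (-0.15 ± 0.18) and Cdc25b (-0.35 ± 0.23) also had small changes.

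**Figure D4:**
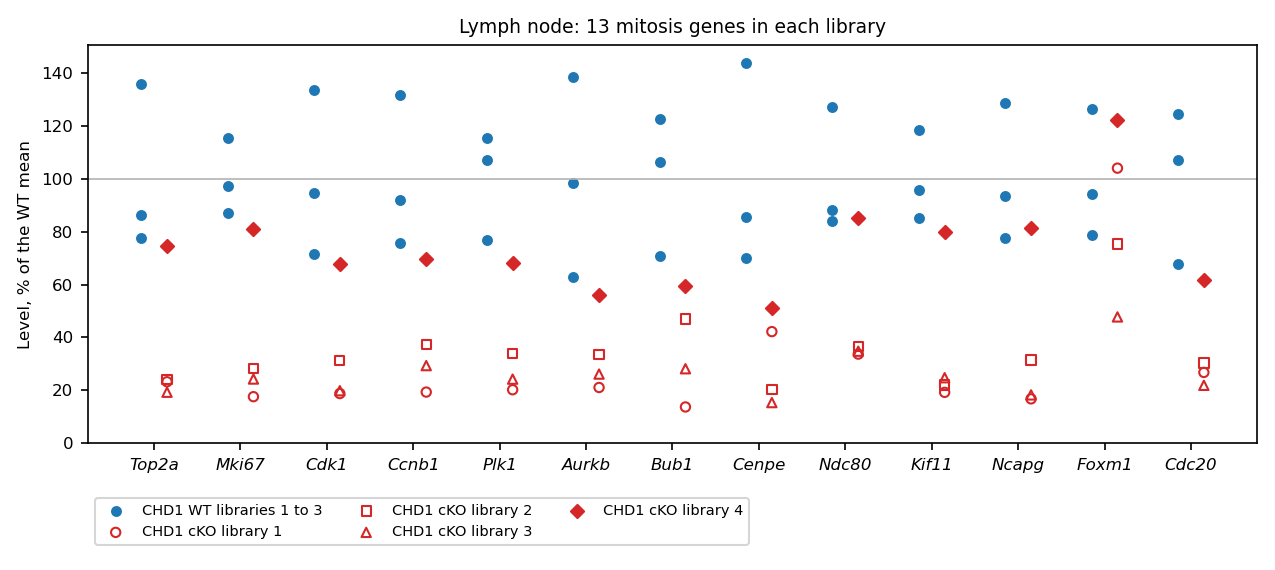
Level of 13 mitosis genes in each lymph node library as a percentage of the CHD1 WT mean (y axis), with WT libraries in blue and CHD1 cKO libraries in red, library 4 filled. Libraries 1 to 3 of the cKO group lie well under the WT libraries in all genes but Foxm1, and library 4 is the highest cKO library in all 13.

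By role, the median log2 fold change in the lymph node ran from -1.49 in the 4 kinases and -1.44 in the 3 checkpoint genes to -0.83 in the 4 midzone and cytokinesis genes and -0.52 in the 2 transcription factors. DNA replication and S phase genes were also lower, with a median of -0.82 and 49 of 50 negative, and 0 of 50 were called by edgeR. The 14 CDK inhibitors and quiescence genes tested had a median of 0.02. A marker list of other cells moved with the genotype. The CD8 T or NK list summed to 27.4, 25.2 and 37.0 scaled CPM in WT and to 216, 506, 429 and 135 in cKO, with library 4 again nearest to WT. Cd8a rose (log2 fold change 6.17 ± 0.76, adjusted p = 0.036) and Cd8b1 rose (3.84 ± 0.51, adjusted p = 0.036), while Ncr1 was at 0 in all 4 cKO libraries. The B or plasma cell list summed to 133 to 189 in WT and 153 to 322 in cKO. The part of these cells in the lower mitosis genes was not tested.

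Comparing tissues, CHD1 cKO cells had more mitotic transcripts in the CNS than in the lymph node, and CHD1 WT cells did not differ by the test except for 1 gene. Tissue and count table cannot be told apart here, and levels are scaled over the 14 CHD1 libraries together. In cKO 45 of 54 members were higher and 1 was lower in the CNS, against 24.6% of all genes higher, 22.7% lower and 47.3% called in either direction. The median was 1.31 against -0.02 over all genes, and groups did not overlap for 20 members, all higher, against 20.5% of all genes. Without TMM scaling 48 members did not overlap. The median of all genes itself then shifted by 0.59, and the share of all genes without overlap was not counted. Kif2c had the most positive change, at 13.1, 9.45, 14.2 and 14.5 scaled CPM in the CNS and 2.08, 2.39, 1.69 and 5.17 in the lymph node (log2 fold change 2.17 ± 0.29, adjusted p = 3.5e-05). Ube2c was at 116, 88.6, 135 and 194 against 18.2, 31.7, 22.5 and 62.01 (log2 fold change 1.99 ± 0.33, adjusted p = 0.00023), and Cdca8 at 62.5, 44.6, 58.5 and 95.5 against 8.33, 13.2, 13.5 and 32.4 (log2 fold change 1.96 ± 0.35, adjusted p = 0.00044). In these 3 genes every CNS library was above every lymph node library.

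All 13 anchor genes were called higher in the CNS among cKO cells. Their log2 fold changes were 1.80 ± 0.32 for Cdk1, 1.65 ± 0.29 for Aurkb, 1.49 ± 0.35 for Kif11, 1.43 ± 0.36 for Ncapg and 1.39 ± 0.33 for Cdc20. Ndc80 (1.38 ± 0.33), Top2a (1.29 ± 0.34), Plk1 (1.20 ± 0.34) and Cenpe (1.19 ± 0.37) followed, and Ccnb1 (1.13 ± 0.32), Bub1 (1.10 ± 0.33), Mki67 (1.03 ± 0.35) and Foxm1 (0.76 ± 0.26) rose least. Cdc25b was the member called lower in the CNS, in both genotypes, with the cKO value near 0 (-0.03) without TMM scaling. It was at 41.2, 43.9 and 42.2 scaled CPM in the WT CNS and 84.8, 86.6 and 113 in the WT lymph node (log2 fold change -1.16 ± 0.24, adjusted p = 0.0037). In cKO it was at 50.1, 37.8, 41.2 and 61.9 against 99.9, 50.6, 60.8 and 88.7 (log2 fold change -0.65 ± 0.21, adjusted p = 0.017), and it was not called without lymph node library 1 (-0.48, adjusted p = 0.070). WT libraries of the 2 tissues did not overlap for Cdc25b, and cKO libraries did. Cdc25b was the only member called in WT, against 16.7% of all genes called and 4.93% called lower, and the WT median was -0.10. Without TMM scaling the median of all genes shifted by 0.35 in WT and 0.59 in cKO, the WT members turned to a median of 0.24, and the cKO members had 2.03. Macrophage markers, all 12 called higher in the CNS in both genotypes, moved with tissue. In cKO the CD8 markers moved too, with Cd8a (-6.55 ± 0.57) and Cd8b1 (-3.60 ± 0.37) lower in the CNS than in the lymph node. The part of these markers was not tested.

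The difference between the genotypes' tissue effects was itself tested. For 53 of 54 members the interaction of CHD1 genotype and tissue was positive, with a median of 1.46 against -0.04 over all genes. By edgeR 0 members were called, and DESeq2 called 20. In edgeR 41 members had an unadjusted p below 0.05, against 2190 of all 11589 genes tested. Of all genes 0.112% were called. The smallest adjusted p-values were those of Kif22 (1.47 ± 0.29, adjusted p = 0.064), Kif2c (2.03 ± 0.41, adjusted p = 0.066) and Aurka (1.90 ± 0.41, adjusted p = 0.07). Without cKO lymph node library 4 the interaction was called for 38 members, and without cKO CNS library 2 for 2. For these fits and for DESeq2 the share of all genes called was not counted. Cd8b1 had an interaction of -3.97 ± 0.57 (adjusted p = 0.030) and Cd8a of -5.47 (adjusted p = 0.098), and their part was not tested. The lymph node comparison, the cKO tissue comparison and this interaction share the cKO lymph node libraries.

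In the CNS the CHD1 genotypes were not separated by mitosis genes. None of the 54 members was called by edgeR or DESeq2, and 0.00896% of all genes were called. In edgeR 3 members had an unadjusted p below 0.05, against 1326 of all 11157 genes tested. The median log2 fold change was 0.16, and 41 members were positive. The summed level was 2042, 2407 and 2264 scaled CPM in WT and 2529, 1986, 2453 and 3431 in cKO, with cKO library 4 the highest of its group for 47 of 54 members. The smallest p-values belonged to Anln, an actin-binding protein of the cleavage furrow, Pttg1 and Spc25. Anln was at 7.73, 7.96 and 5.94 in WT and 4.83, 4.62, 2.59 and 4.84 in cKO (log2 fold change -0.77 ± 0.28, adjusted p = 0.34), with every cKO library lower, as in 6.83% of all genes. Pttg1 was at 71.7, 56.8 and 57.9 against 80.04, 68.8, 98.9 and 81.6 (log2 fold change 0.41 ± 0.16, adjusted p = 0.37), and Spc25 at 18.8, 21.3 and 25.3 against 29.00, 23.8, 31.7 and 29.2 (log2 fold change 0.39 ± 0.17, adjusted p = 0.41). In both of these the groups overlapped.

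Among the anchors in the CHD1 CNS libraries, given as WT against cKO, Cdk1 alone had groups that did not overlap. It was at 106, 116 and 115 scaled CPM in WT and 129, 133, 119 and 157 in cKO (log2 fold change 0.26 ± 0.13, adjusted p = 0.47), and 5.95% of all genes were likewise higher without overlap. Ccnb1 was at 41.1, 72.9 and 71.8 against 73.9, 65.03, 79.4 and 114, and Plk1 at 23.01, 35.7 and 37.9 against 35.6, 30.6, 29.2 and 59.3. In these and most other anchors cKO library 4 was above the rest. Aurkb was at 37.8, 49.95 and 47.98 against 51.4, 47.6, 50.3 and 77.4, and Cdc20 at 46.7, 80.3 and 65.8 against 77.7, 46.4, 81.6 and 119. Top2a was at 73.8, 91.8 and 86.9 against 90.3, 79.8, 59.2 and 97.2. Mki67 was at 25.3, 27.9 and 25.3 against 23.97, 16.7, 14.2 and 26.5, with a negative fitted change (-0.36) that was not called. The attachment genes overlapped as well. Bub1 was at 17.04, 17.02 and 18.5 against 11.99, 14.4, 13.8 and 24.03, Cenpe at 7.03, 6.29 and 5.72 against 5.80, 4.26, 6.75 and 9.21. Ndc80 was at 18.8, 20.7 and 20.9 against 19.3, 11.4, 23.3 and 31.99. Kif11 stood at 19.3, 22.2 and 18.9 against 20.3, 15.3, 13.7 and 23.3, Ncapg at 18.1, 20.4 and 17.4 against 21.8, 15.3, 19.7 and 23.7. Foxm1 was at 8.61, 7.59 and 7.48 against 7.93, 7.46, 7.44 and 10.8. The macrophage list summed to 3883 to 5184 in WT and 3621 to 7899 in cKO CNS libraries, with the lowest sum in cKO library 4.

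Deletion of GR in the transferred cells changed no mitosis gene past the threshold in the CNS. By edgeR 0 of 54 members were called, DESeq2 called 0, and the share called over all genes was 0%. In edgeR 0 members had an unadjusted p below 0.05, against 1226 of all 11148 genes tested. The median log2 fold change was 0.27, and 53 of 54 were positive. Leaving out 1 library moved the median between 0.10 (without cKO library 6) and 0.65 (without WT library 4), with no member called. The summed level was 1087, 1094, 978 and 2192 scaled CPM in WT (libraries 1 to 4) and 1382, 1963, 1035 and 1854 in cKO (libraries 5, 6, 7 and 9). WT library 4 was apart from the other 3: it was the highest WT library for 53 of 54 members, and it was above all cKO libraries in the sum. The smallest p-values were those of Ttk, Kif18b and Aurkb. Ttk was at 2.30, 1.91, 3.13 and 4.31 in WT and 3.91, 5.72, 2.56 and 5.30 in cKO (log2 fold change 0.60 ± 0.33, adjusted p = 0.55), and Kif18b at 1.57, 1.31, 1.32 and 1.88 against 1.14, 3.51, 1.85 and 3.08 (log2 fold change 0.65 ± 0.37, adjusted p = 0.55). Aurkb was at 17.2, 16.9, 13.7 and 38.7 against 30.4, 40.8, 17.6 and 39.7 (log2 fold change 0.57 ± 0.35, adjusted p = 0.6). In all 3, WT library 4 lay inside the cKO range.

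WT library 4 was high in the other anchors of the GR experiment as well, given as WT against cKO. Cdk1 was at 47.2, 32.1, 35.5 and 105 scaled CPM in WT and 73.2, 86.4, 45.2 and 81.9 in cKO. Ccnb1 was at 19.9, 20.97, 18.3 and 60.5 against 33.03, 51.1, 21.9 and 54.9, and Plk1 at 10.5, 12.99, 13.2 and 31.6 against 18.5, 28.2, 11.4 and 27.02. The fourth WT value was the highest WT value in each. Top2a was at 39.4, 41.7, 37.1 and 87.99 against 46.9, 83.04, 33.7 and 73.9, Mki67 at 9.60, 11.1, 9.24 and 21.3 against 12.7, 18.2, 8.53 and 14.5. Cdc20 was at 19.3, 21.6, 28.7 and 61.2 against 35.3, 51.3, 24.5 and 50.8. In cKO, libraries 6 and 9 were the higher pair in these 3 genes. Bub1 was at 8.25, 7.63, 6.27 and 16.5 against 7.65, 13.3, 4.55 and 15.9, Cenpe at 3.03, 3.22, 2.47 and 5.52 against 4.23, 5.59, 2.42 and 4.27. Ndc80 was at 8.25, 8.22, 9.73 and 20.3 against 11.1, 15.2, 9.67 and 16.9. Kif11 stood at 8.45, 8.34, 8.74 and 21.9 against 13.02, 21.2, 6.97 and 16.8, Ncapg at 10.02, 14.2, 9.73 and 20.7 against 12.2, 17.9, 8.11 and 17.6. Foxm1 was at 3.13, 2.98, 3.46 and 6.86 against 4.39, 6.63, 4.27 and 5.98. Groups overlapped for all 54 members, while 6.46% of all genes did not overlap. The macrophage list summed to 2281, 9316, 6559 and 3358 in WT and 11897, 6545, 10075 and 5251 in cKO. The B or plasma cell list (57.2 to 96.8 in WT against 104 to 1014 in cKO) did not overlap between the genotypes. Nor did the neutrophil list (0 to 1.15 against 3.25 to 24.4), while the other marker lists overlapped. The part of these lists was not tested.

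**Figure D5:**
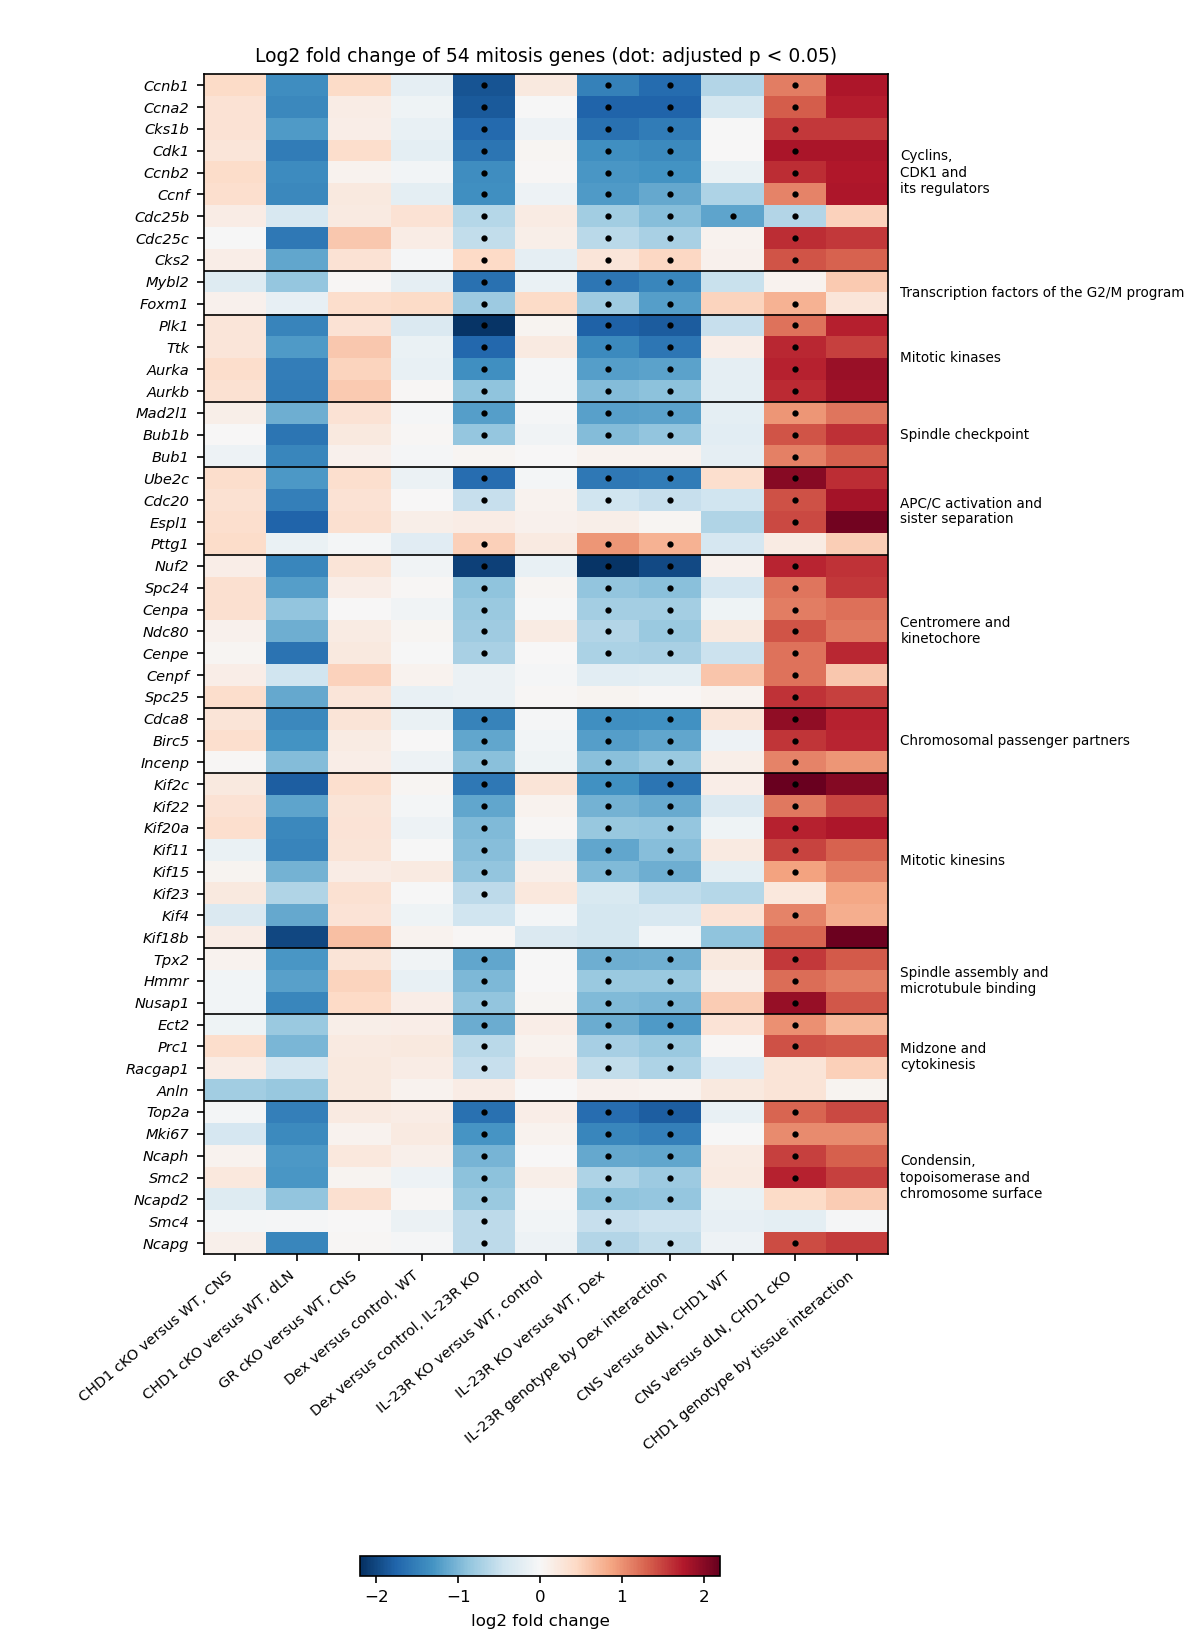
Log2 fold change (colour) of the 54 mitosis genes (rows, grouped by role) in the 11 comparisons (columns), with a dot where the adjusted p was below 0.05. The column of Dex in IL-23R KO cells has 47 dots, nearly all on falls, the CHD1 lymph node column is negative throughout without a dot, and Cks2 and Pttg1 are the members that rose with Dex in IL-23R KO cells (0.04 for Pttg1 and -0.04 for Cks2 without TMM scaling).

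The order of the members was compared between comparisons that share no library. Over the 54 members, the Dex changes in IL-23R KO cells and the CHD1 changes in the lymph node had a Pearson r of 0.30 and a Spearman rho of 0.25, and the Dex changes in WT and IL-23R KO cells had 0.31 and 0.40. The Dex changes in IL-23R KO cells and the GR changes in the CNS had -0.05 and -0.04. These are descriptions across genes, which are not independent. Bub1 and Espl1 had negative changes in the CHD1 cKO lymph node (-1.44 ± 0.39 and -1.76 ± 0.58) and changes near 0 with Dex in IL-23R KO cells (0.05 ± 0.12 and 0.17 ± 0.25). Per kilobase of exon, Cks2 was the most abundant member in every group except the CHD1 cKO CNS libraries, where Cks1b was. In WT control cultures it was at 266.5 ± 24.1 scaled CPM per kilobase (SD, n = 4), followed by Cks1b at 147.9 and Ube2c at 102.2. In IL-23R KO Dex cultures Pttg1 followed at 51.0 and then Cks1b at 42.1. Reads of Cks1b and Cks2 come from related genes, and the deposited counts do not show how shared reads were divided. The libraries do not mark strand, so reads of members that overlap a gene on the other strand are uncertain: 29.3% of the exonic bases of Kif20a overlap Cdc23, 12.7% of Cdc25c overlap Gm3550, 12.5% of Ccna2 overlap Exosc9 and 11.1% of Prc1 overlap Rccd1.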

How the data were processed

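Each library was made from 2000 sorted cells by a modified SMART-Seq2 protocol with 12 amplification cycles, per the labels' protocols. The authors deposited 4 tables of expected counts per gene symbol as whole numbers, and RSEM 1.3.3 and the mouse build mm10 are named in the submitters' processing notes; the annotation is not given in the sources used here. The kit does not mark strand. Totals ran from 3148634 to 9159671 counts per library, so that 3 counts stood for 0.313 to 1.03 scaled CPM.

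Genes were filtered with filterByExpr (minimum count 10, minimum total 15), scaled by TMM and tested with the edgeR 4.0.16 quasi-likelihood test in R 4.3.3, with Benjamini-Hochberg adjustment over all genes tested. The 16 cultured libraries were fitted together, and the 14 CHD1 libraries were fitted together for tissue. DESeq2 1.42.0 was an alternative, beside other scaling, no filter, removal of 16 repeat features, a replicate block and leaving out each library. The SE was derived from the fold change and the F statistic. In data simulated for the dexamethasone comparison in IL-23R KO cells, 55.8% of 95 genes changed 2-fold were recovered among 10599 genes. For the CHD1 lymph node comparison it was 42.7% of 96 among 9611. The dexamethasone simulation changed only 99 further genes, by 1.5-fold, whereas 5911 of 10813 genes were called in the data. The adjusted p depends on how many genes change, so these shares do not give the recovery in the real comparisons. No pair of libraries within a group agreed within sampling noise.

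The 54 members and all gene lists were chosen with earlier results of these data known. All members could be named; 13 anchor genes were given in every library, with up to 3 called members of the most positive and of the most negative change per comparison, or the 3 with the smallest p where none was called. Promoters came from RefSeq (GRCm38.p6), with only the first entry of each symbol used, and exon overlaps from GENCODE M21.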

Additional observations from a re-analysis of the deposited data

Results flagged for a closer look

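The 13 anchor genes and the summed level were examined in 7 groups of 4 libraries. In 19 of 98 such tests a library was far from the other 3 by Dixon's test at the 95% level. Chance alone gives about 1 in 20 for independent tests. These measures share libraries and are not independent, so the count cannot be set against that rate. Library 4 of the CHD1 cKO lymph node group was high in its summed level (1410.6 scaled CPM) and in Top2a (49.3), Mki67 (14.9), Ndc80 (10.3) and Kif11 (9.86). Library 4 of the GR WT group was high in its summed level (2192), Ccnb1 (60.5), Aurkb (38.7), Plk1 (31.6), Top2a (88.0), Kif11 (21.9), Mki67 (21.3), Ndc80 (20.3) and Foxm1 (6.86). Library 4 of the CHD1 cKO CNS group was high in Aurkb (77.4) and Foxm1 (10.8). Single low values were Ncapg in IL-23R KO Dex library 6 (17.1), Cenpe in WT control library 3 (7.72) and Mki67 in WT control library 4 (13.9).

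The Dex effect differed between WT and IL-23R KO cells by the edgeR interaction test for 45 of 54 members. The named terms, on the log2 scale, were Nuf2 -1.99, Plk1 -1.84, Top2a -1.81, Ccnb1 -1.70, Mki67 -1.50, Cdk1 -1.40 and Foxm1 -1.21. Smaller terms were Kif11 -0.94, Aurkb -0.91, Ndc80 -0.82, Cenpe -0.71, Ncapg -0.54 and Cdc20 -0.52. Pttg1 (0.77) and Cks2 (0.46) had terms of the opposite sign.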

How the results depend on the processing

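In the CHD1 lymph node comparison the count of members called was 0 in edgeR, 16 with DESeq2, 1 with DESeq2 size factors, 32 without the filter and 10 in the joint fit of both tissues, and leaving out 1 library at a time gave 0 to 45, with 45 without cKO library 4. For the CHD1 genotype by tissue interaction it was 0, with 20 by DESeq2, 16 without the filter and 0 to 38 on leaving out 1 library. Shares of all genes called were counted only in the main edgeR fits. No correlation of same-numbered libraries was above 0.11. It was above the best correlation with another number for some libraries and below it for others. With so few libraries per group this cannot decide whether replicate numbers pair the libraries. With a replicate block 42 lymph node members and 5 interaction members were called, and the other counts were as without the block. The lymph node block in effect left out cKO library 4, which has no WT partner. Dex in IL-23R KO cells gave 47 to 48 called members over all settings, IL-23R KO against WT under Dex 45 to 47, their interaction 42 to 47, CNS against lymph node 38 to 48 in cKO and 1 in WT, and the other comparisons 0. Leaving out 1 library turned the sign of Foxm1 in the lymph node, with log2 fold changes from -0.38 to 0.023 (0.015 without WT library 2, 0.023 without cKO library 3). It also turned Bub1, which ran from -0.021 to 0.10 for Dex in IL-23R KO cells (lowest without control library 5), from -0.0095 to 0.15 for genotype under Dex and from -0.013 to 0.15 for the interaction (both lowest without WT Dex library 4; the interaction was also below 0 without IL-23R KO control library 5). The cause was not tested. Without TMM scaling the members that did not overlap between groups numbered 5 against 2 for CHD1 in the CNS and 7 against 12 for WT between tissues. Shares over all genes were not counted without that scaling. For WT between tissues the share with it is not given either, so the 12 cannot be set against a background.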
